A study of Mus musculus with 8 samples.

Results

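The genes described here belong to the kallikrein and kinin pathway: the kininogen gene Kng1, the kallikrein genes Klk1, Klk8 and Klk10, the receptor genes Bdkrb1 and Bdkrb2, and the genes of the kinin-degrading enzymes Ace, Cpm and Mme. They were taken by gene name, and all 9 had a row among the 20681 rows of the table. A filter on low values (4 or more of the 8 libraries with a normalised read count of 10 or higher) was passed by 7 of the 9, and by 14949 genes in all. Kng1 and Klk10 did not pass it. Klk1 passed through the libraries labelled knockout alone (4 of 4 against 0 of 4 control libraries at 10 or more), and Bdkrb1 passed with 4 of 4 against 1 of 4.

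Kinins are short peptides that dilate blood vessels, raise vascular permeability and sensitise pain fibres. Kallikreins are serine proteases, and some of them, such as tissue kallikrein (the product of Klk1), cut kinins out of kininogens. One kinin receptor, the product of Bdkrb2, is made constitutively in many cells and binds intact bradykinin, whereas the product of Bdkrb1 is typically induced by injury or inflammation and binds kinins that have lost their last arginine. Peptidases on cell surfaces end the signal or, in the case of carboxypeptidase M, convert one kind of ligand into the other.

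RNA of knee joints was sequenced after poly-A selection in 4 libraries labelled control and 4 labelled knockout. The series describes all 8 samples as Acan-Cre;Loxl2 fl/fl, a Cre under the aggrecan gene with floxed Loxl2 alleles. Such a design aims recombination at cells that express Acan, and recombination was not measured here. The design text states that the 4 controls received vehicle. The names given to the libraries are Vehicle_DMM_LOXL2wt and KO_DMM_LOXL2ko; DMM usually denotes surgical destabilisation of the medial meniscus, and the agent given to the knockout samples, the ages and the number of animals per sample are not stated in the sources used here. The libraries held 13991000 to 17411617 reads assigned to genes, and where samples were not separate animals the p-values measure technical spread only.

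The level of the targeted gene was looked at first. It cannot settle whether the labels are right, because recombination was aimed at cells that express Acan and RNA of knee joints was sequenced. Loxl2, in normalised reads, stood at 282, 349, 1135 and 311 across control replicates 1 to 4. Across knockout replicates 1 to 4 it stood at 893, 1468, 960 and 1518. The transcript of the targeted gene was thus not lower in the libraries labelled knockout, and control replicate 3 lay among them. Limma called Loxl2 higher there (log2 difference 1.44, SE 0.40, limma adjusted p = 0.0294), and the call was lost in 8 of 17 alternative fits. For that reason the groups are called by their labels, and values without control replicate 3 are given for Klk1, Bdkrb1, Serping1 and the count of pathway genes. Cartilage was represented in both groups, with summed chondrocyte marker levels of 3760 to 11456 in the control libraries and 9471 to 13144 in those labelled knockout. The filter, which does not look at the groups separately, was passed by 10 of 10 chondrocyte, 10 of 10 fibroblast and 12 of 12 skeletal muscle markers.

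The 9 genes were chosen by their place in the pathway, but with the difference between the groups already known from these 8 libraries, that of Klk1 and Bdkrb1 included. Their values are therefore given as a description, with no test. In the whole table limma called 23.2% of the tested genes (adjusted p below 0.05), 11.6% as higher and 11.6% as lower. Of the 7 members that passed the filter, Klk1 and Bdkrb1 were among the called genes, both higher. The groups did not overlap for the same pair of genes, against 25.1% of tested genes without overlap (11.7% higher). Because the choice was made with these differences known and both genes passed the filter mainly through the group in which they were high, nothing is read from these counts.

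**Figure D1:**
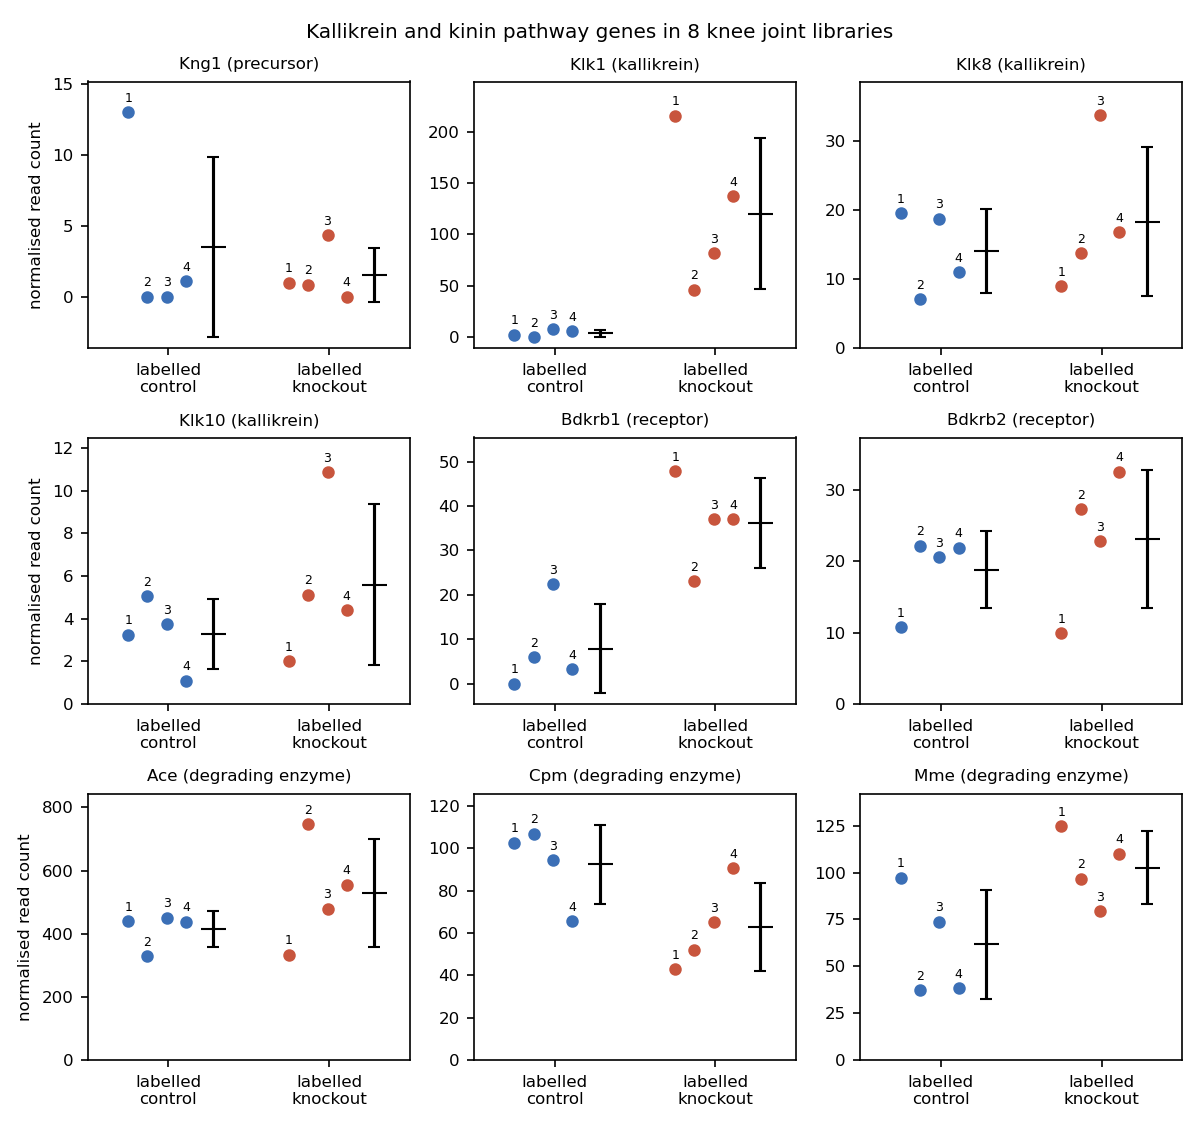
Normalised read counts of the 9 genes in each library, with replicate numbers beside the points. The x axis gives the labelled group, and bars show mean ± SD of 4 libraries. Klk1 lies at or below 7.48 in the control libraries and at or above 46.2 in those labelled knockout, while the groups of Klk8, Klk10, Bdkrb2, Kng1, Ace, Cpm and Mme overlap.

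Reads of the kininogen gene Kng1 were few, and the amount of kininogen protein in the joint was not measured. Kng1 (chromosome 16, 23057865 to 23082078, plus strand of mm10) encodes kininogen, which is made mostly by the liver and circulates in plasma. Its normalised read count was 13.0, 0, 0 and 1.095 across control replicates 1 to 4, then 0.997, 0.855, 4.35 and 0 across knockout replicates 1 to 4. Control replicate 1 held 12 of the 13 control reads, so the control mean of 3.52 ± 6.33 (SD, n = 4) rests on that library, and the mean of the other group was 1.55 ± 1.92 (SD, n = 4). In each of the 3 libraries without a read, a count of 0 allows up to 3 reads, a value of at most 3.03. Its close copy Kng2, also a kininogen gene, lies 28382 bp away in the annotation and passed the filter. Kng2 had 14.1 ± 11.1 normalised reads in the control libraries and 27.3 ± 17.0 in those labelled knockout (SD, n = 4 each). Its groups overlapped (log2 difference 1.15, SE 0.81, limma adjusted p = 0.325). The coding sequences of Kng1 and Kng2 were 92.8% identical over 1929 aligned bases, and 13.1% of the 50-base windows of Kng1 occurred unchanged in Kng2, so reads can be shared between these genes.

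Of the kallikreins, Klk1 differed most. Klk1 (chromosome 7, 44225360 to 44229618, plus strand; Gm10109 overlaps it on the opposite strand) encodes tissue kallikrein, the kinin-releasing protease known from salivary gland, kidney and pancreas. Its normalised read count was 2.16, 0, 7.48 and 5.48 in control replicates 1 to 4. In knockout replicates 1 to 4 it was 215, 46.2, 81.6 and 137. The lowest library labelled knockout lay above the highest control library, and within that group the highest value, in replicate 1, was well above the lowest, in replicate 2. The means were 3.78 ± 3.34 and 120 ± 73.8 (SD, n = 4 each), a ratio of 31.8, and the log2 difference was 4.84 (SE 0.69). In reads, the control libraries held 15 together and the libraries labelled knockout 501. The single control library without a Klk1 read could have held up to 3, a value of 3.03. Without control replicate 3 the log2 difference was 5.25, and with a pseudocount of 10 in place of 1 it was 3.09.

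Klk1 lies in a run of mouse genes of related sequence, the Klk1b genes, so its coding sequence was compared with theirs. Of the 50-base windows in its 783 coding bases (GENCODE release M21), 33.8% occurred unchanged in a transcript of another gene, most often Klk1b5 (23.2%), which had no row in the table. Of the copies with a row, Klk1b21 shared 7.90% and Klk1b24 7.77% of the windows. How reads that fit several genes were counted is not stated in the sources used here. The stretches below, 60 coding bases each, read 5′ to 3′, come from alignments of Klk1 with Klk1b5 and the Klk1b genes with a row. They show where reads of these genes can and cannot be told apart, and other copies were not aligned. Capitals mark bases that differ from Klk1, and positions are counted from 1 at the A of the start codon. The first set, positions 420 to 479, is the stretch with the fewest differences from Klk1 summed over these copies. The second, positions 723 to 782, is that in which the copy nearest to Klk1 differs most.
Klk1, 420 to 479: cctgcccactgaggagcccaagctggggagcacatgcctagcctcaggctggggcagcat
Klk1b21, 420 to 479: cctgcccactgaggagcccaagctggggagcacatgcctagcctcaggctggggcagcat
Klk1b1, 420 to 479: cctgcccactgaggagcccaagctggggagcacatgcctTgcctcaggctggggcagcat
Klk1, 723 to 782: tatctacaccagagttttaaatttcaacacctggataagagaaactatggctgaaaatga
Klk1b5, 723 to 782: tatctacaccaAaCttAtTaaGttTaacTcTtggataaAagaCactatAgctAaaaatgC
Klk1b21, 723 to 782: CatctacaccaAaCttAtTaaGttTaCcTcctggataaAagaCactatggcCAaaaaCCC
Klk1b26, 723 to 782: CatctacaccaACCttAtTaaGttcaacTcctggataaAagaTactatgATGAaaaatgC
In the first stretch Klk1b5, Klk1b21, Klk1b24 and Klk1b27 had 0 differences from Klk1, Klk1b1 had 1 and Klk1b26 had 3. In the second, the copies shown had 13 (Klk1b5), 16 (Klk1b21) and 15 (Klk1b26). Over the whole coding sequence Klk1b5 was 95.1% identical to Klk1.

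The copies themselves had few reads. Of 13 listed Klk1b genes 5 had a row, and none passed the filter. Klk1b21, 87.1% identical to Klk1 over the coding sequence, had 0 reads in every control library. In knockout replicates 1 to 4 it had 8, 12, 6 and 2 reads. With 3 reads allowed for the control group as a whole, the summed level was 8.58-fold higher in the libraries labelled knockout. That figure leaves out the counting error of the 28 reads themselves. Klk1b27 had 2 reads in control replicate 1, 0 in the other control libraries, and 4, 6, 5 and 7 in knockout replicates 1 to 4. The counts of both genes were thus higher in every library labelled knockout, at levels far below that of Klk1. Both share windows with Klk1, so reads of Klk1 may be among theirs, which was not tested. Klk1b26, 83.4% identical to Klk1, lay the other way, with a mean of 12.3 ± 9.39 in the control group and 6.97 ± 5.26 in the other (SD, n = 4 each), and its groups overlapped. Klk1b1 and Klk1b24 had 0 and 1 control reads in all, against 11 and 15 reads over the libraries labelled knockout.

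Klk8 and Klk10 lie 428 kb and 444 kb before Klk1 in the same cluster and share no 50-base window of coding sequence with any other gene. Klk8 (chromosome 7, 43797577 to 43803826, plus strand) encodes neuropsin, a trypsin-like protease best known from skin and brain. It had normalised read counts of 19.5, 7.07, 18.7 and 10.95 across control replicates 1 to 4, then 8.98, 13.7, 33.7 and 16.7 across knockout replicates 1 to 4. The groups overlapped, with knockout replicate 3 above every other library and with means of 14.0 ± 6.04 and 18.3 ± 10.8 (SD, n = 4 each) and a log2 difference of 0.30 (SE 0.47). Knockout replicate 3 set the direction, since without it the log2 difference was -0.03.

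Klk10 (chromosome 7, 43781035 to 43785410, plus strand) is a kallikrein gene of epithelia. Its values were 3.24, 5.05, 3.74 and 1.095 in the control libraries and 1.99, 5.13, 10.9 and 4.40 in those labelled knockout, in the order of their replicate numbers. Only knockout replicate 3 reached 10, the library that was also highest for Klk8. The antisense gene 2310002F09Rik overlaps both Klk8 and Klk10, and the use of strand in counting is not stated, so reads of that gene may be among theirs. Of the keratinocyte markers, Krt5, Krt14, Krt1, Krt15, Dsg3 and Ivl had no row, and the summed level of the 4 with a row was 221 to 260 in the control libraries and 167 to 201 in those labelled knockout. Of 2 such markers tested, 1 was called lower.

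**Figure D2:**
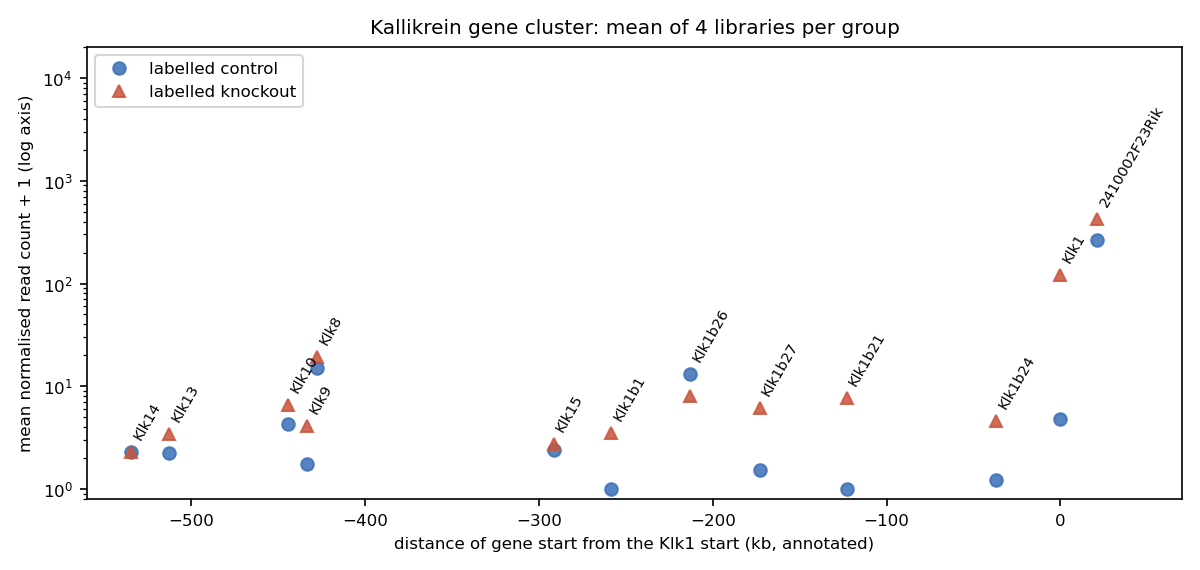
Mean normalised read count plus 1 (log axis, 4 libraries per group) of the kallikrein genes with a row and of the next tested gene beyond Klk1, against the distance of each gene's start from the Klk1 start. Klk1 has the widest gap between the group means, 3.78 against 120, while Klk8 has 14.0 against 18.3 and Klk10 3.28 against 5.60.

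Of 26 listed tissue kallikreins, 12 had a row and only Klk1 and Klk8 passed the filter. The gene that follows Klk1 and passed it, 2410002F23Rik, starts 21.4 kb beyond the Klk1 start. It had 262 ± 31.9 and 424 ± 43.2 normalised reads (SD, n = 4 each) and rose by 0.70 on the log2 scale (SE 0.12, limma adjusted p = 0.00658; exact permutation p = 0.0286, the smallest that 4 against 4 allows). Glandular epithelium is the best known source of Klk1. Of 10 markers of it 8 had a row, Muc19 and Smgc had none, and among 5 tested 1 was called higher and 1 lower. Their summed level was 1532 to 2309 in the control libraries and 1201 to 1761 in those labelled knockout.

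The receptor genes Bdkrb2 and Bdkrb1 lie next to each other on chromosome 12, 7847 bp apart with 0 protein-coding genes between them, and their coding sequences were 59.4% identical over 982 aligned bases. Bdkrb1 (105603085 to 105605428, plus strand) had normalised read counts of 0, 6.06, 22.4 and 3.29 in control replicates 1 to 4. In knockout replicates 1 to 4 it had 47.9, 23.1, 37.0 and 37.0. Control replicate 3, the library that was also high for Loxl2, came within 1 normalised read of knockout replicate 2, and the other control libraries were far lower. The means were 7.94 ± 9.97 and 36.2 ± 10.2 (SD, n = 4 each), a ratio of 4.56, and the log2 difference was 2.81 (SE 0.80). It was 3.53 without control replicate 3 and 2.02 without control replicate 1, whose count of 0 allows up to 3 reads (a value of 3.24). Its place among the called genes was kept in only 7 of the 17 alternatives tried.

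Bdkrb2 (105563226 to 105595237, plus strand) had 10.8, 22.2, 20.6 and 21.9 normalised reads in control replicates 1 to 4. In knockout replicates 1 to 4 it had 9.97, 27.4, 22.8 and 32.6. The lowest library of each group was replicate 1, and the groups overlapped. The means were 18.9 ± 5.42 and 23.2 ± 9.66 (SD, n = 4 each), and the log2 difference of 0.22 (SE 0.41) turned to -0.05 under quantile normalisation and to -0.01 without control replicate 1.

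Per kilobase of annotated exon, Bdkrb1 stood at 5.54 ± 6.95 (control) and 25.2 ± 7.07 (labelled knockout) normalised reads, and Bdkrb2 at 4.98 ± 1.43 and 6.11 ± 2.55 (SD, n = 4 each). Bdkrb1 thus made up 0%, 41.9%, 74.2% and 28.4% of the summed level of both receptors in control replicates 1 to 4. In knockout replicates 1 to 4 it made up 92.7%, 69.0%, 81.1% and 75.0%. Bdkrb1 was the more abundant receptor transcript in all 4 libraries labelled knockout and in control replicate 3, while control replicate 3 lay above knockout replicate 2, so that the shares of the groups overlapped.

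**Figure D3:**
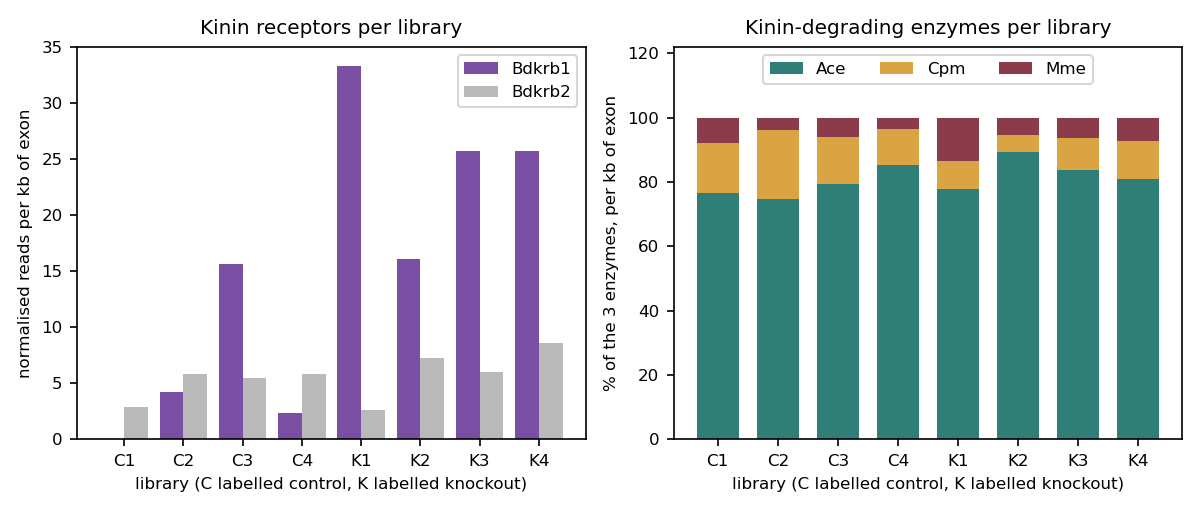
Left, Bdkrb1 and Bdkrb2 in normalised reads per kilobase of exon in each library (C1 to C4 labelled control, K1 to K4 labelled knockout). Right, the share of Ace, Cpm and Mme in their summed level per kilobase. Bdkrb1 exceeds Bdkrb2 in C3 and K1 to K4, and Ace makes up 74.6% to 89.2% of the enzymes in every library.

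Of the 3 member genes of kinin-degrading enzymes, Ace had the highest level per kilobase of exon. Ace (chromosome 11, 105967945 to 105989964, plus strand; Gm11651 lies opposite) encodes angiotensin-converting enzyme, an endothelial surface peptidase that inactivates bradykinin. It had 440, 329, 451 and 438 normalised reads across control replicates 1 to 4, then 333, 747, 480 and 555 across knockout replicates 1 to 4. Knockout replicate 1 fell among the control libraries and replicate 2 was the highest of all, so the groups overlapped. The means were 414 ± 57.2 and 529 ± 172 (SD, n = 4 each), and the log2 difference was 0.30 (SE 0.22). Of 10 endothelial markers tested 0 were called by limma, and their summed level was 6267 to 7920 in the control libraries and 4915 to 9981 in those labelled knockout.

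Cpm was the only tested member with a lower mean in the libraries labelled knockout. Cpm (chromosome 10, 117629500 to 117687352, plus strand; Gm25709 lies opposite) encodes carboxypeptidase M, which removes the last arginine of kinins and so makes the ligands of the Bdkrb1 receptor. It had 103, 107, 94.4 and 65.7 normalised reads across control replicates 1 to 4, then 42.9, 52.2, 65.2 and 90.7 across knockout replicates 1 to 4. In knockout replicates 1 to 3 it lay below every control library, and in replicate 4 it lay among them. The means were 92.5 ± 18.6 and 62.7 ± 20.8 (SD, n = 4 each), and the log2 difference was -0.58 (SE 0.26).

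Mme (chromosome 3, 63241537 to 63386030, plus strand) encodes neprilysin, a membrane peptidase that cleaves bradykinin, substance P and other small peptides. It had 97.3, 37.3, 73.8 and 38.3 normalised reads across control replicates 1 to 4, then 125, 96.6, 79.4 and 110 across knockout replicates 1 to 4. The control libraries split into a low pair (replicates 2 and 4) and a higher pair, and control replicate 1 exceeded knockout replicates 2 and 3. The means were 61.7 ± 29.2 and 103 ± 19.3 (SD, n = 4 each), and the log2 difference was 0.83 (SE 0.32). Over the 17 alternatives it stayed between 0.57 and 1.08.

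Per kilobase of exon, the control group ranked Ace (78.4 ± 10.8), Cpm (15.5 ± 3.12), Klk8 (9.12 ± 3.92), Bdkrb1 (5.54 ± 6.95), Mme (5.35 ± 2.53), Bdkrb2 (4.98 ± 1.43), Klk1 (3.51 ± 3.10), Klk10 (2.39 ± 1.20) and Kng1 (1.08 ± 1.95; all normalised reads per kilobase, SD, n = 4). From Klk8 downwards each level lay within 1 SD (the larger) of its neighbour. In the libraries labelled knockout Klk1 moved from the seventh place to the first, at 112 ± 68.5, beside Ace at 99.998 ± 32.6, and these levels lay within 1 SD of each other. Bdkrb1 followed at 25.2 ± 7.07, and Klk8 (11.9 ± 6.996), Cpm (10.5 ± 3.48), Mme (8.90 ± 1.67) and Bdkrb2 (6.11 ± 2.55) lay close together below it. Kng1 was the lowest in both groups.

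Other genes of the pathway were taken from lists by role, which were drawn up with earlier results of these data known. The lists held 83 genes besides the members, of which 61 had a row and 42 passed the filter. Of these, limma called 14 (33.3%, against 23.2% of all tested genes), 10 of them higher and 4 lower where the label reads knockout. Their median log2 difference was 0.08, against 0.00 over all tested genes. The count was 14 again without control replicate 3. It was 9 without control replicate 2, control replicate 4 or knockout replicate 2, 8 without knockout replicate 4, and 8 under quantile normalisation. When each library was scaled on genes other than muscle, blood and the 50 highest genes, which moved the median of all genes to 0.15, the calls were 12 higher and 1 lower. The list genes given below with an exact permutation p were picked as the called genes of smallest p in their list (up to 4). Their exact p-values and their calls in the alternatives use the same 8 libraries as that choice, so they are no separate evidence.

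In the plasma contact system, whose proteases start kinin release in blood, F12 and F11 had no row and Klkb1, the plasma prekallikrein gene, had at most 8 reads in a library. Prcp, a peptidase that can activate prekallikrein, rose from 190 ± 31.7 to 383 ± 32.0 normalised reads (SD, n = 4 each; log2 difference 1.02, SE 0.14, limma adjusted p = 0.00397, exact permutation p = 0.0286). It was called in all 17 alternatives. C1qbp, whose product binds kininogen on cells, fell from 1202 ± 186 to 895 ± 121 (log2 difference -0.42, SE 0.13, limma adjusted p = 0.0428), but its groups overlapped (exact permutation p = 0.0857) and the call was lost in 9 of 17 alternatives. Plaur, another kininogen-binding receptor gene, had a log2 difference of 0.93 and was not called (limma adjusted p = 0.0529).

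Of 4 tested inhibitor genes, Serping1 was called. It encodes the C1 inhibitor, the main inhibitor of plasma kallikrein, and rose from 1391 ± 503 to 2658 ± 694 normalised reads (SD, n = 4 each; log2 difference 0.96, SE 0.26, limma adjusted p = 0.0280). Its groups overlapped (exact permutation p = 0.0571) through control replicate 3, at 2100 against 1680 in knockout replicate 3. Without control replicate 3 the log2 difference was 1.18 (limma adjusted p = 0.00879). The call was lost in 7 of 17 alternatives, with limma adjusted p-values up to 0.0795. Serpina3c, Serpina1a and Spint2 were not called, with log2 differences of -0.13, -0.44 and -0.13.

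**Figure D4:**
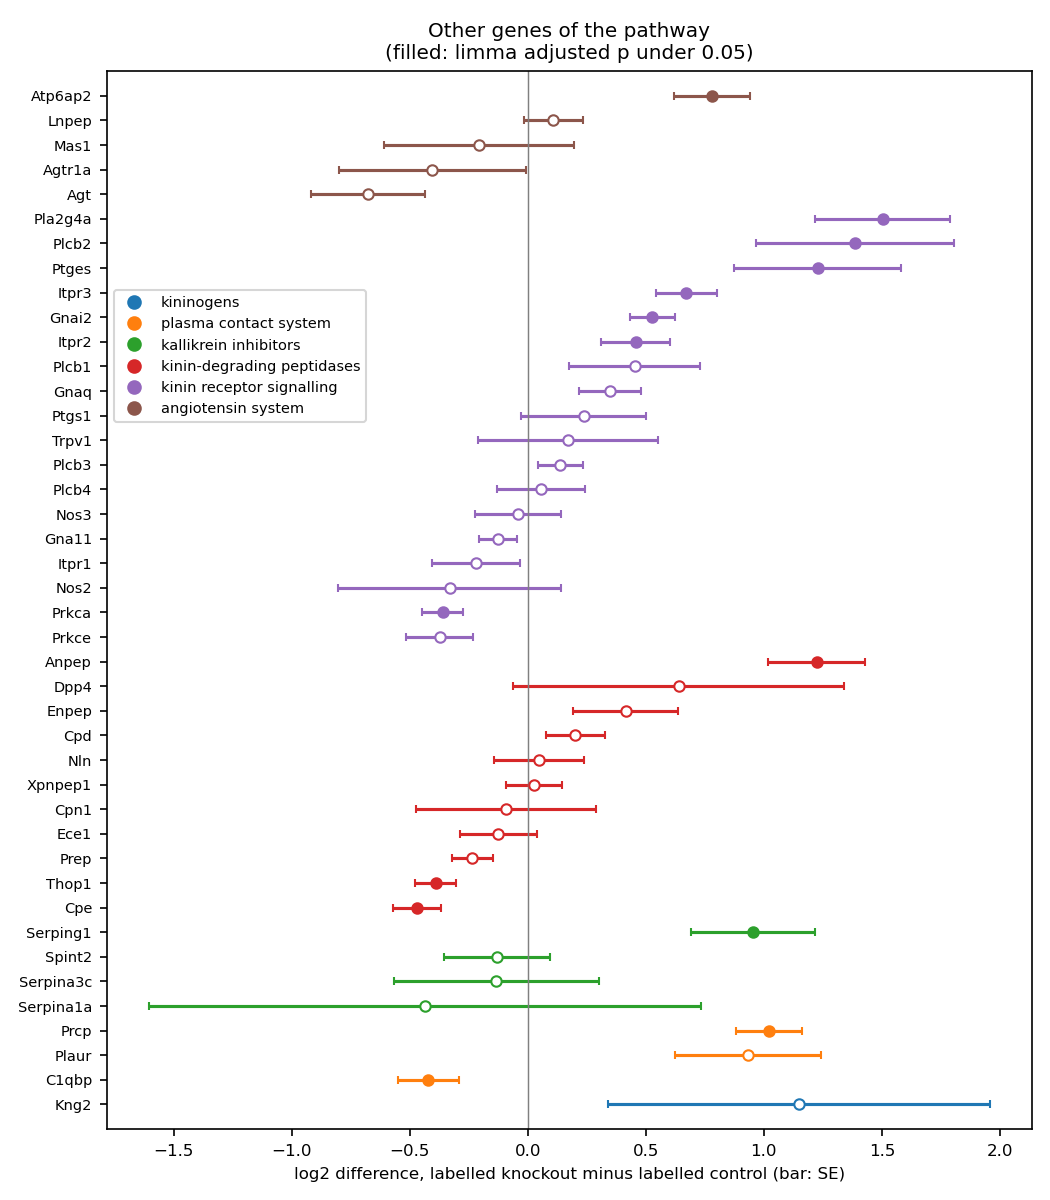
Log2 difference (labelled knockout minus labelled control, x axis, bars showing the SE) of the 42 tested pathway genes that are not members, coloured by role. Filled points are the 14 genes called by limma, 10 to the right of 0 and 4 to the left.

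Of 11 further peptidase genes tested, 1 rose and 2 fell, a share of 27.3% that lies near the 23.2% over all tested genes. Anpep, the aminopeptidase N gene, rose from 294 ± 80.7 to 685 ± 165 normalised reads (SD, n = 4 each; log2 difference 1.22, SE 0.21, limma adjusted p = 0.00581, exact permutation p = 0.0286). Cpe, a carboxypeptidase of secretory granules, fell from 6100 ± 259 to 4429 ± 570 (log2 difference -0.47, SE 0.10; limma adjusted p = 0.0118; exact permutation p = 0.0286). The call was lost under quantile normalisation (limma adjusted p = 0.240). Thop1, the gene of the kinin-cleaving thimet oligopeptidase, fell from 542 ± 20.0 to 413 ± 27.0 (log2 difference -0.39, SE 0.09; limma adjusted p = 0.0130; exact permutation p = 0.0286). Its call was lost when libraries were scaled without muscle, blood and the highest genes (limma adjusted p = 0.0618). Ece1, which encodes an endothelial kinin-cleaving enzyme, and Xpnpep1, an aminopeptidase gene, were not called (log2 differences -0.12 and 0.03).

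Downstream of the receptors, 6 of 18 tested signalling genes were called higher and 1 lower (38.9%, against 23.2% of all tested genes). Pla2g4a, whose phospholipase releases arachidonic acid, rose from 19.8 ± 4.27 to 59.3 ± 16.6 normalised reads (SD, n = 4 each; log2 difference 1.504, SE 0.29, limma adjusted p = 0.00838, exact permutation p = 0.0286). Itpr3, a calcium release channel gene, rose by 0.67 (limma adjusted p = 0.00897), and Gnai2, a G protein subunit gene, by 0.53 (limma adjusted p = 0.00707). Prkca, a protein kinase C gene, fell by 0.36 on the log2 scale (limma adjusted p = 0.0179), and its call was lost in 4 of 17 alternatives. Plcb2, Itpr2 and Ptges, named after their values were seen, completed the 6 higher genes. The groups of Plcb2 (limma adjusted p = 0.0396) and Itpr2 (limma adjusted p = 0.0481) overlapped. Gnaq and Gna11, the G protein genes to which kinin receptors chiefly couple, were not called (log2 differences 0.35 and -0.13), nor was Nos3, the endothelial nitric oxide synthase gene (-0.04).

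The genes whose profiles came closest to a member over the 8 libraries were sought by the root mean square difference of centred log2 values. They were chosen for their likeness, so their values carry no test. Closest to Klk1 were Ptn (0.89), Cryaa (0.94), Cd244a (1.1), Aspg (1.11) and Prss35 (1.11 log2 units). Closest to Bdkrb1 were Lrrc15 (0.62), Tnfaip8l3 (0.66), Col3a1 (0.72), Pcdhb13 (0.74) and P4ha3 (0.80). Like Bdkrb1, all 5 were highest among the control libraries in control replicate 3, a pattern that the choice by likeness favours. Col3a1, for example, had 5083, 13660.5, 37777.9 and 5257 normalised reads in control replicates 1 to 4. Closest to Mme were Tent5a (0.11), Blnk (0.13), Map4k4 (0.17), Vstm4 (0.17) and Nrp2 (0.19). Their low pair of libraries was also control replicates 2 and 4, which the same choice favours.

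**Figure D5:**
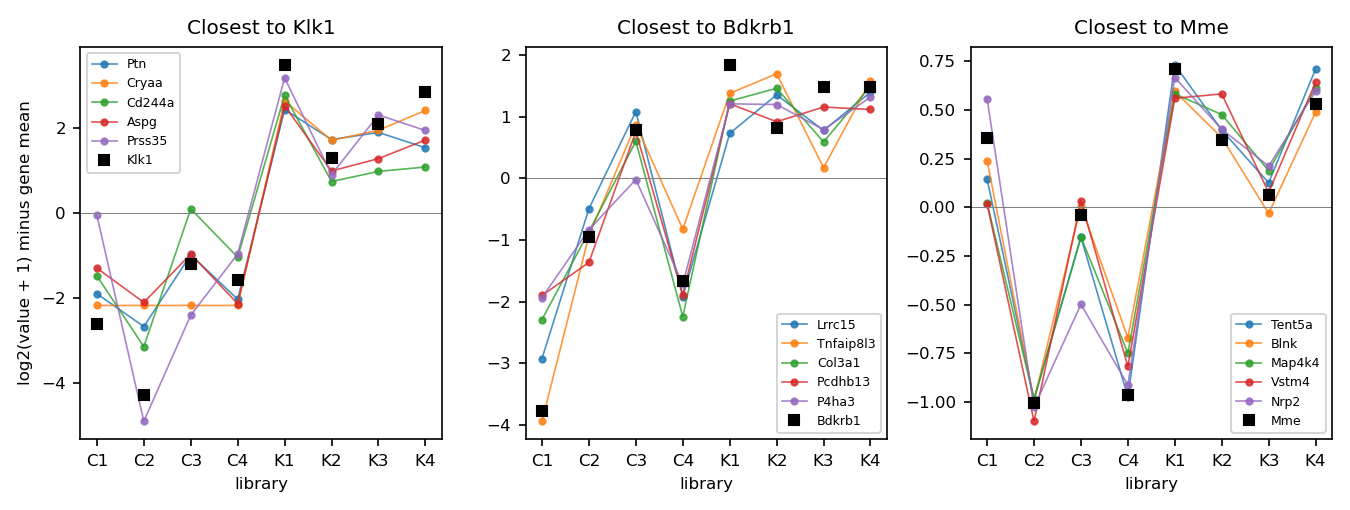
Log2(value + 1) minus the gene's mean (y axis) in each library for Klk1, Bdkrb1 and Mme (black squares) and the 5 closest genes of each (coloured points joined by lines). The genes were chosen by this likeness. Those beside Bdkrb1 rise in C3 as Bdkrb1 does, and those beside Mme are low in C2 and C4.

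Markers of several cell types moved between the same groups, in which limma called 23.2% of all tested genes (11.6% higher and 11.6% lower). Of 10 fibroblast markers 7 were called higher and 0 lower, with summed levels of 50967.5 to 144639 in the control libraries and 184569 to 293169 in those labelled knockout, and none of the markers lacked a row. Of 10 macrophage markers 9 were called higher (summed levels 2873 to 6757 and 10034.3 to 14266.7), and of 8 osteoclast markers 7 were (summed levels 1868 to 14064.8 and 10270.0 to 39328.8). Of 10 osteoblast markers 5 were called higher, and their summed levels did not overlap (2639 to 12696.6 and 13518.3 to 31292.5). Of 12 skeletal muscle markers 4 were called lower, all 12 had a lower mean log2 value in the libraries labelled knockout, and their summed levels did not overlap either. Chondrocyte markers had 1 of 10 called higher and 0 lower, and their summed levels overlapped (3760 to 11456 and 9471 to 13144). Erythroid markers had 0 of 8 called, though all 8 had a lower mean log2 value in the libraries labelled knockout. The neutrophil and B cell precursor lists had 0 of 8 and 0 of 4 tested genes called by limma, and Rag2 had no row. The part of these cell types in the levels of Klk1, Bdkrb1, Cpm and Mme was not tested, and in whole joints a change in the number of cells and a change in RNA per cell cannot be told apart.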

How the data were processed

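The members and gene lists were chosen with earlier results of these data known. The authors deposited 1 table of normalised values, treated here as a signal: the read count of a gene divided by a size factor per library. Per the labels, reads were aligned to mm10 and counted with featureCounts, and DESeq2 was used. HISAT2 is named in the submitters' processing notes. Versions, annotation, strand and multiple-mapping settings are not given in the sources used here. In every column 100% of values were whole multiples (tolerance 0.01) of the smallest positive value, which gave the reads quoted. In control replicate 2 and knockout replicate 1 that step was within 0.01 of 1.

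Values were log2-transformed with a pseudocount of 1 and fitted with limma 3.58.1 (eBayes with trend, a single group term) over the 14949 genes passing the filter. P-values were Benjamini-Hochberg adjusted over all of them. Exact permutation tests were two-sided over 70 assignments. The fits were tested on simulated data. The alternatives were pseudocounts of 0.1 and 10, no filter, TMM, quantile and reduced-gene scaling, edgeR 4.0.16, DESeq2 1.42.0, a replicate block and leaving out each library. Gene positions, exon lengths and coding sequences came from GENCODE release M21, on the same build, which matched 99.3% of rows. The named genes were the 9 members, Loxl2, up to 4 called genes of smallest p per list, tested kallikreins, the tested neighbours of Klk1, and the 5 genes closest in profile to Klk1, Bdkrb1 and Mme. Counting limits cover counting error only.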

Additional observations from a re-analysis of the deposited data

Results flagged for a closer look

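Within the groups of 4, a library stood apart when its gap to the nearest other, divided by the range of the group, passed Dixon's 95% critical value. Of 20 groups checked, chance alone would single out about 1 in 20 if values were normally distributed and the groups independent. Low read counts from the same libraries need not meet these conditions. Control replicate 1 was the low library for Bdkrb2 (10.8, against 20.6 to 22.2 in the other controls) and the high library for Kng1 (13.0, against 0 to 1.095). Control replicate 2 was low for Ace (329, against 438 to 451). Control replicate 3 was high for Loxl2 (1135, against 282 to 349). All 4 values were in the control group.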

How the results depend on the processing

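In all, 3461 genes were called. The count was 2018 with the replicate block and lay between 1751 (without knockout replicate 4) and 3841 when a library was left out, with 1887 without control replicate 2 and 2194 without control replicate 4. Of pathway genes beside the members 14 were called, 8 under quantile normalisation and 8 to 14 when a library was left out. The cause of these moves was not tested. Reduced-gene scaling called 3532 genes, 2773 of them higher and 759 lower, against 1732 and 1729. The log2 difference of Klk8 ranged from -0.0308 to 0.57 when a library was left out and that of Bdkrb2 from -0.0133 to 0.56, and quantile normalisation gave -0.0486 for Bdkrb2. Klk1, Bdkrb1, Ace, Cpm and Mme kept their direction in all 17 alternatives. For Klk1 and Bdkrb1, whose groups did not overlap, leaving out a library could not have reversed it. The members were chosen with these differences known, so this describes the processing only and is no test of them. Klk1 ranged from 3.09 (pseudocount 10) to 5.87 (pseudocount 0.1) and Bdkrb1 from 1.48 to 3.75. Replicate numbers are not stated to pair libraries. The deviations of same-numbered libraries correlated across genes at 0.21, -0.12, -0.23 and -0.06, and 2 of 8 libraries correlated best with their own number. With the replicate block 11 pathway genes were called, and Bdkrb1 was not among the called genes. Kng1, Klk10 and the Klk1b genes rest on few reads, so differences among them were mostly not detectable at this depth.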

Other observations

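The angiotensin system, which shares Ace with the kinins, had 5 genes tested. Atp6ap2, the gene of the (pro)renin receptor and a proton pump accessory subunit, rose from 430 ± 66.8 to 745 ± 145 normalised reads (SD, n = 4 each; log2 difference 0.78, SE 0.16, limma adjusted p = 0.0109, exact permutation p = 0.0286). Agt, the angiotensinogen gene, had 233 ± 36.6 and 151 ± 52.5 normalised reads and did not pass the test (limma adjusted p = 0.0681; log2 difference -0.68). The receptor genes Agtr1a and Mas1 were not called either (log2 differences -0.41 and -0.21).

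Some low genes outside the tests, chosen after their values were seen, differed between libraries. Ptgs2, the gene of the inducible cyclooxygenase, had 2, 4, 8 and 2 reads across control replicates 1 to 4, then 19, 10, 2 and 34 across knockout replicates 1 to 4. Ece2, a kinin-cleaving peptidase gene, had 1, 3, 8 and 0 reads and 17, 13, 8 and 3 reads in the same order.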
